A study of Oryza sativa with 8 samples.

Results

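Leaf RNA of the rice (Oryza sativa) double mutant glk1glk2 was compared with leaf RNA of its wild type, labelled DJ, on a medium with normal phosphate. The label names glk1glk2 as a double mutant of the Golden2-like genes GLK1 and GLK2, and neither the alleles nor the place of the lesions is given in the sources used here. Each genotype gave 1 library. A gene was compared where its deposited value was at least 50 in one of the libraries, which held for 3720 of the 40718 genes in the table, and 3640 of these were protein coding. The ratio of a gene is the log2 of (value + 1) in glk1glk2 over (value + 1) in DJ, so that a negative ratio means a lower value in glk1glk2 leaves. A fold given for a single gene is that of the deposited values themselves, with nothing added. Seedlings of both genotypes were raised in tubes on solid Murashige and Skoog medium of reduced strength at 26 °C, with 13 h of light and 11 h of dark, and were 2 weeks old at the start of the treatments. The same table holds glk1glk2 and DJ leaves taken 6 days after transfer to 10 µM phosphate, and leaves of a further mutant, dgp1, at both supplies, with 1 library each.

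GLK1 and GLK2 are GARP-family transcription factors that switch on nuclear genes for the chloroplast. In rice, Arabidopsis and maize their best known targets encode the light-harvesting antenna proteins, subunits of the photosystems and enzymes of chlorophyll synthesis. Plants that lack both are pale green, with small chloroplasts and few stacked thylakoids.

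The deposited values behave as FPKM, that is, fragments per kilobase of gene, scaled to a library total. In each of the 2 libraries the value times the gene length is a whole multiple of 1 step, which gives 14307611 reads in glk1glk2 and 13772220 in DJ leaves. The reads per gene pile up at a read number that differs between libraries, 183 reads in glk1glk2 and 48 in DJ leaves, as copies of 1 cDNA fragment would. A further, smaller pile lies at 96 reads in glk1glk2. Divided by the first of these, the libraries hold about 78184 fragments in glk1glk2 and 286921 in DJ leaves, and the median gene compared rests on 8 fragments in glk1glk2 and 24 in DJ leaves. Genes above 0 numbered 15067 in glk1glk2 and 17782 in DJ leaves. An interval given with a ratio below is the exact 95% binomial interval over these estimated fragments. It covers counting error alone, is approximate, and says nothing of the spread between plants, which 1 library a side cannot give, and no test of the genotypes was run. A gene listed at 0 is given a bound of 3 fragments, which for a gene of 1 kb is a value of 30.7 in glk1glk2 and 11.1 in DJ leaves. Were 96 reads the size of 1 fragment, the bound in glk1glk2 would be 16.1, and genes listed at 0 there would be lower by at least a larger factor. A fold given as "at least" sets the 0 at this bound and takes the other library's value as it stands, so that the 95% interval can begin lower, as for ST1 below, at least 121-fold higher with an interval from 97.

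Of the 3720 genes, 933 were at least 2-fold higher in glk1glk2 leaves (25.1%), 1173 were at least 2-fold lower (31.5%) and 1614 lay between. The median log2 ratio was -0.17, with quartiles at -1.32 and 1.00. Both the 2-fold difference and an interval beyond 1 were met by 636 genes on the higher side (17.1%) and 849 on the lower side (22.8%), or by 749 and 1034 with 96 reads as 1 fragment in glk1glk2. An interval beyond 1 alone was met by 695 genes above (18.7%) and 899 below (24.2%). An 8-fold difference was passed by 210 genes upward and 270 downward. In glk1glk2 leaves 112 of the genes compared were listed at 0, and in DJ leaves 89. A gene could enter through its higher library alone, so these shares were also taken over the 2762 genes with a mean of at least 50 in the other 4 libraries of the table. Of those, 522 were at least 2-fold higher (18.9%) and 832 lower (30.1%), with a median of -0.22. The share of higher genes among those called depended on the scaling. It was 44.3% with the deposited values, 58.3% after scaling to each library's own reads, which raised the median by 0.40, and 59% after scaling to each library's own sum of values, which raised it by 0.42.

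**Figure D1:**
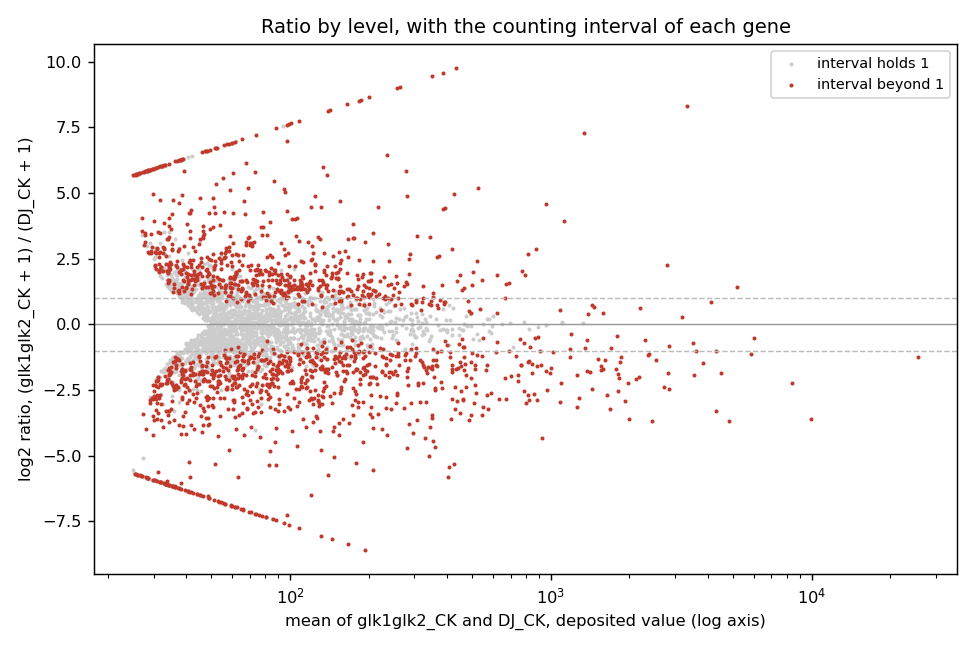
Each point is 1 of the 3720 genes: the horizontal log axis is the mean of the glk1glk2_CK and DJ_CK values and the vertical axis is the log2 ratio of (glk1glk2_CK + 1) over (DJ_CK + 1). Red points have a counting interval beyond 1, grey points do not, dashed lines mark 2-fold, and the straight arms at the edges are genes listed at 0 in one library.

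Markers of green leaf were the most abundant in both genotypes. They summed to 14958.5 in glk1glk2 and 68699.6 in DJ leaves, with 31 of 57 above 0 in glk1glk2 and 34 in DJ leaves. Of 7 root genes 1 was above 0 in glk1glk2 leaves and 3 in DJ leaves, with sums of 13.1 in glk1glk2 and 77.5 in DJ leaves, and the nitrate transporters NRT2.1 and NRT2.2 and the silicon exporter LSI2 were at 0 in both. Genes of the meristem and of dividing cells summed to 5636 in glk1glk2 and 6823 in DJ leaves, with 46 of 121 above 0 in glk1glk2 and 56 in DJ leaves. Genes of vessels and phloem summed to 119 in glk1glk2 and 145 in DJ leaves, and genes of pollen or seed to 689.8 in glk1glk2 and 477 in DJ leaves. The part of cell makeup in the ratios was not tested. In whole leaves, fewer cells of a type and less RNA per cell cannot be told apart.

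The 2 mutated genes were still transcribed. GLK1 (OsGLK1, Os06g0348800) lies on chromosome 6 at positions 14078261 to 14082203 of the table's annotation, whose build is not given in the sources used here. Its value was 40.9 in glk1glk2 leaves, against 179 in DJ leaves, which is 4.37-fold lower (interval 2.0 to 9.8). GLK2 (Os01g0239000, chromosome 1, 7686901 to 7693984) was at 32.2 in glk1glk2 leaves, against 96.2 in DJ leaves, 2.98-fold lower (interval 1.4 to 6.39). Both genes were thus lower in the mutant, with 8 estimated fragments of GLK1 and 9 of GLK2. On low phosphate GLK1 was at 49.3 in glk1glk2 and 129.6 in DJ leaves, and GLK2 at 53 in glk1glk2 and 86.9 in DJ leaves. Since the lesions are not stated, the level of these transcripts does not by itself check the genotype.

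The clearest pattern lay in the nuclear genes of the photosynthetic machinery, nearly all of which were lower in glk1glk2 leaves. Over 36 functional lists, found by symbol and product, the lowest medians were those of photorespiration, nitrogen assimilation, electron transport, the photosystems and the antenna. The lists hold 770 of the genes compared (20.7%), and no gene is in more than 1 list. Calls of a 2-fold difference within a list are to be read against the 25.1% higher and 31.5% lower of all genes compared.

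**Figure D2:**
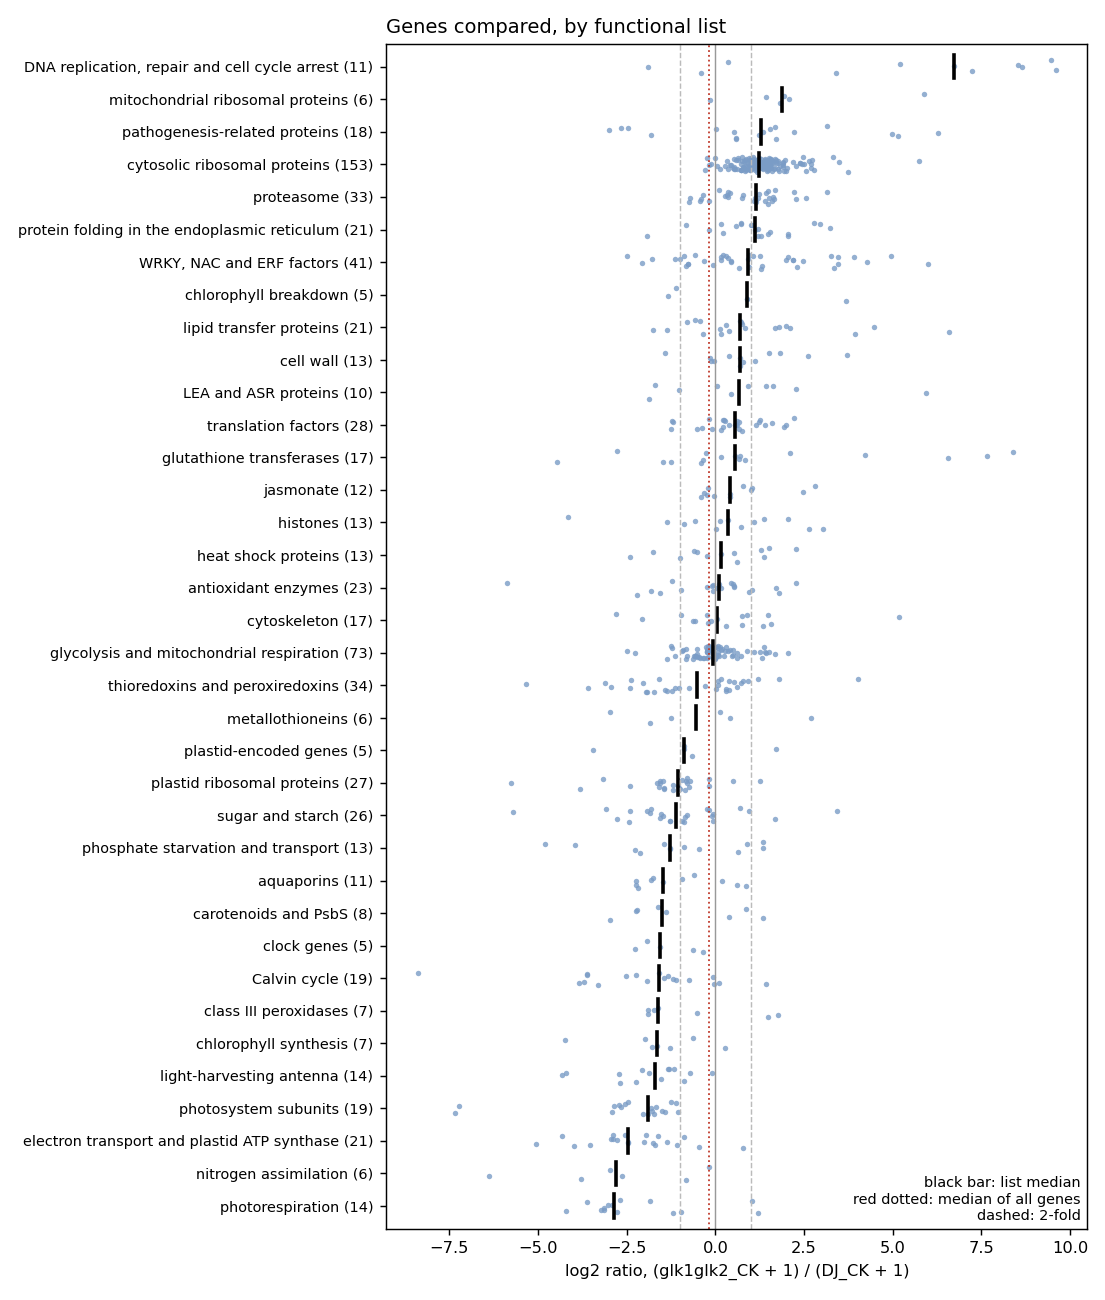
Log2 ratios of (glk1glk2_CK + 1) over (DJ_CK + 1) for the members of each list, with the number of members in brackets. The black bar is the list median, the red dotted line the median of all genes compared (-0.17) and the dashed lines 2-fold. Chloroplast lists sit on the left and the ribosome, proteasome and DNA lists on the right.

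The antenna proteins hold most of the chlorophyll of the thylakoid and pass light energy to the photosystems. Of 14 antenna genes compared, 11 were at least 2-fold lower in glk1glk2 leaves, 3 lay between and 0 were higher, with a median log2 ratio of -1.71. Their values summed to 10499.7 in glk1glk2 and 30949 in DJ leaves. CP24, a minor antenna protein of photosystem II, had 30.7 in glk1glk2 leaves, against 629 in DJ leaves, on 3 fragments in the mutant, 20.5-fold lower (interval 7.91 to 115). CP29, its neighbour in the complex, had 436 in glk1glk2 leaves and 2829.9 in DJ leaves, 6.49-fold lower (interval 4.92 to 8.77). The other minor antenna gene, ASCAB9-A (a CP26 type), had 696 in glk1glk2 leaves and 3262 in DJ leaves, 4.69-fold lower (interval 3.72 to 5.93). All 3 minor antenna genes were lower on normal phosphate, CP24 by the largest factor. On low phosphate CP24 went the other way, at 54 in glk1glk2 and 2.0 in DJ leaves. CP29 was at 352 in glk1glk2 and 812 in DJ leaves there, and ASCAB9-A at 595 in glk1glk2 and 732 in DJ leaves. Among the genes of the main trimeric antenna the spread was wide. CAB2R had 215 in glk1glk2 leaves, against 1414 in DJ leaves, 6.58-fold lower (interval 4.36 to 10.2), and the type II gene LHCB (Os03g0592500) had 1458 in glk1glk2 leaves, against 3269 in DJ leaves, 2.24-fold lower (interval 1.9 to 2.67). CAB1R, which had the highest value of the list in glk1glk2 leaves, was at 2662 in glk1glk2 leaves and 4351 in DJ leaves, 1.63-fold lower (interval 1.45 to 1.85), and so did not pass 2-fold. The type III gene Os07g0562700 was at 861 in glk1glk2 leaves and 919 in DJ leaves, a ratio of -0.09 on the log2 scale, the nearest to 0 of the 14. The CAB genes are near copies that may share reads, and how such reads were assigned is not given in the sources used here. CabE, a less abundant gene of the list, had 5.86 in glk1glk2 leaves and 127 in DJ leaves, on 1 fragment in the mutant, 21.7-fold lower (interval 2.51 to 599). The antenna of photosystem I was lower too. Its gene Os06g0320500 had 813 in glk1glk2 leaves and 3432 in DJ leaves, the photosystem I type III gene Os02g0197600 had 1919.8 in glk1glk2 leaves and 7015 in DJ leaves, and the type IV gene listed as cab (Os08g0435900) had 863 in glk1glk2 leaves and 2175 in DJ leaves.

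All 19 photosystem genes compared were at least 2-fold lower in glk1glk2 leaves, with every interval below 1 and a median of -1.90, or -1.82 with genes listed at 0 set at their bound. These nuclear genes encode the small and peripheral subunits, since the reaction centre cores are encoded in the plastid. On the lumen side of photosystem II, PsbO, which holds the manganese cluster of water splitting in place, had 625 in glk1glk2 leaves and 2201 in DJ leaves, 3.52-fold lower (interval 2.81 to 4.5). PsbP, its partner there, had 442 in glk1glk2 leaves and 1256 in DJ leaves, 2.84-fold lower (interval 2.12 to 3.95). PsbR (OsPsbR3), the list's highest value in both libraries, had 3694 in glk1glk2 leaves and 8018 in DJ leaves, 2.17-fold lower (interval 1.9 to 2.48). All 3 of these genes of the water-splitting side were lower. In photosystem I, PsaE and PsaD form the docking side for ferredoxin, and PsaE had 448 in glk1glk2 leaves and 3381 in DJ leaves, 7.54-fold lower (interval 5.0 to 12.3), against 1096 in glk1glk2 leaves and 2626 in DJ leaves for PsaD, 2.4-fold lower (interval 1.91 to 3.0). PsaF (OsPS1-F), which binds plastocyanin, had 234 in glk1glk2 leaves and 1483 in DJ leaves, 6.35-fold lower (interval 4.16 to 10.1). PSAH, where the mobile antenna docks, had 523 in glk1glk2 leaves and 3082 in DJ leaves, 5.89-fold lower (interval 4.14 to 8.45), and PsaL, its neighbour, was the least changed of the list at 400.2 in glk1glk2 leaves and 831 in DJ leaves, 2.08-fold lower (interval 1.53 to 2.88). PsbY and the PsaN-family gene Os03g0731100 were listed at 0 in glk1glk2 leaves, against 148 and 162 in DJ leaves, which makes them at least 4.73-fold and 3.06-fold lower. On the 21 photosystem genes picked by the other 4 libraries, 21 were lower and the median was -2.03.

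Electron carriers followed. Of 21 genes for electron transport and the plastid ATP synthase, 18 were at least 2-fold lower and 0 higher, median -2.46. Plastocyanin (OsPC), the copper protein between the cytochrome complex and photosystem I, had 859.6 in glk1glk2 leaves, against 4786 in DJ leaves, 5.57-fold lower (interval 4.28 to 7.38). Ferredoxin Fd1 had 866 in glk1glk2 leaves, against 3498 in DJ leaves, 4.04-fold lower (interval 3.16 to 5.19). Both leaf-type ferredoxin-NADP reductases, which make the NADPH of photosynthesis, rested on few fragments in the mutant. OsLFNR1 had 31.7 in glk1glk2 leaves and 379 in DJ leaves, 12-fold lower (interval 4.57 to 34.1), and OsLFNR2 had 7.73 in glk1glk2 leaves and 288 in DJ leaves on 1 fragment in glk1glk2, 37.2-fold lower (interval 6.4 to 1454). The Rieske iron-sulphur protein petC of the cytochrome complex had 896 in glk1glk2 leaves and 2329.7 in DJ leaves, 2.6-fold lower (interval 2.09 to 3.25). PGR5 (OsPGR5), needed for cyclic electron flow around photosystem I, had 211 in glk1glk2 leaves and 715 in DJ leaves, 3.4-fold lower (interval 1.97 to 5.95). In the ATP synthase the delta subunit Os02g0750100 had 230.0 in glk1glk2 leaves and 1341 in DJ leaves, 5.83-fold lower (interval 2.66 to 14.4), while the gamma subunit Os07g0513000 was at 155 in glk1glk2 leaves and 288 in DJ leaves, 1.86-fold lower (interval 1.19 to 3.0). The exception in direction was OsFd3, a ferredoxin of the non-photosynthetic type, at 72.2 in glk1glk2 leaves and 42 in DJ leaves with an interval that holds 1. TSP9-like Os07g0243150, a thylakoid phosphoprotein gene chosen after its values were seen, was listed at 0 in glk1glk2 leaves, against 387 in DJ leaves, at least 6.3-fold lower.

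**Figure D3:**
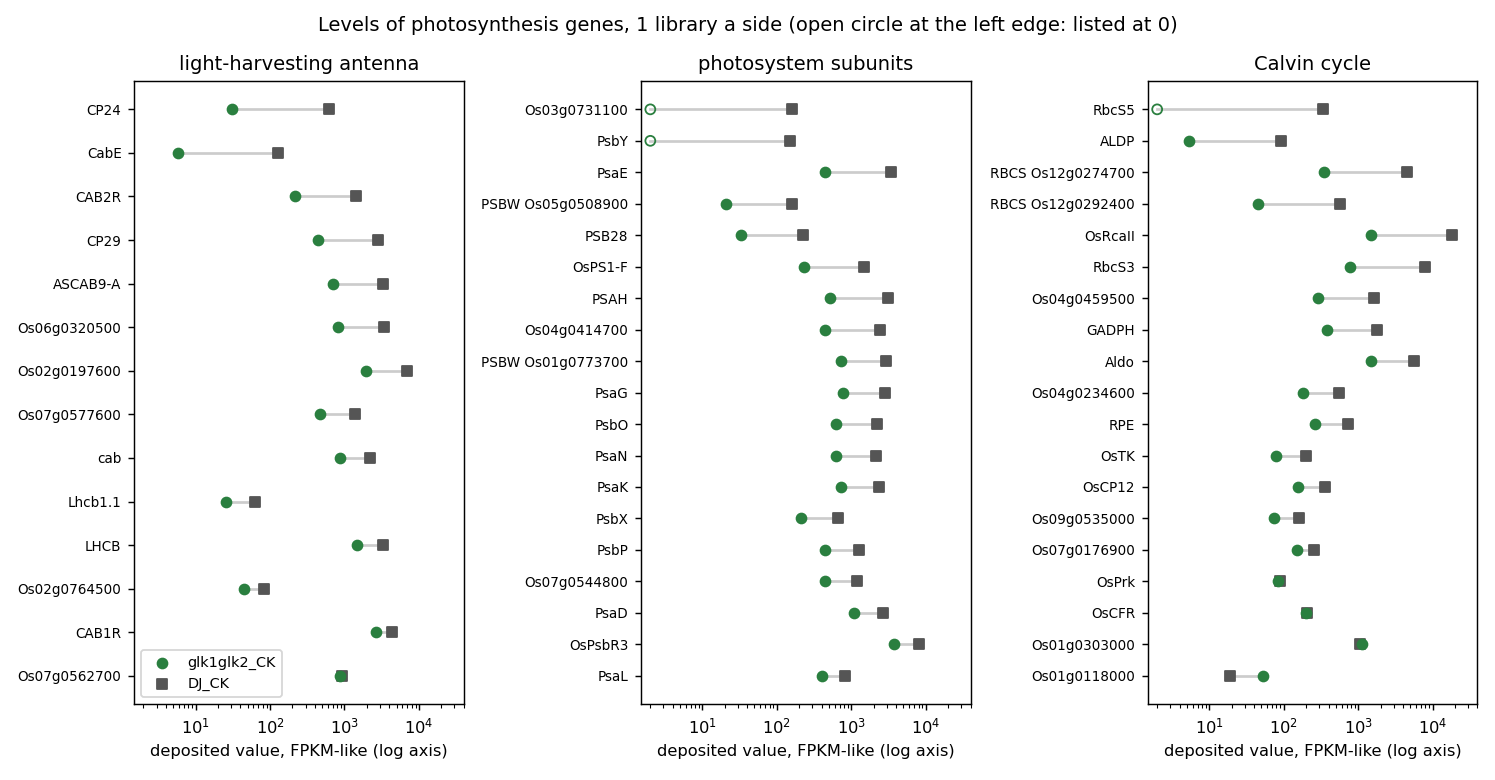
Deposited values on a log axis for the genes of 3 lists, with glk1glk2_CK as green circles and DJ_CK as grey squares, 1 library each. Open circles at the left edge are values of 0. All 19 photosystem genes and all 14 antenna genes have the circle left of or on the square, and in the Calvin cycle 2 of 19 genes have it to the right.

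The carbon reactions were lower too, but less evenly. Of 19 Calvin cycle genes, 14 were at least 2-fold lower and 1 higher, median -1.60, and their sum was 7379 in glk1glk2 and 44669.8 in DJ leaves. Rubisco activase, which frees Rubisco from bound inhibitors, stood out as the gene OsRcaII with 1489.7 in glk1glk2 leaves, against 18414 in DJ leaves, 12.4-fold lower (interval 10.9 to 14). It rests on 251 fragments in glk1glk2 and 8583 in DJ leaves and has the narrowest interval of the list. The small subunits of Rubisco were lower as a family. RbcS3 had 778 in glk1glk2 leaves and 7784 in DJ leaves, 10.01-fold lower (interval 7.95 to 13). The copies Os12g0274700 and Os12g0292400 had 350.0 and 44.9 in glk1glk2 leaves, against 4539.6 and 569 in DJ leaves. RbcS5 was listed at 0 in glk1glk2 leaves, against 334 in DJ leaves, at least 10.3-fold lower. These near copies may share reads. Among the enzymes that follow Rubisco, the GAPB-type Os03g0129300 (listed as GADPH) had 380.2 in glk1glk2 leaves and 1809 in DJ leaves, 4.76-fold lower (interval 3.68 to 6.28), and the plastid aldolase Aldo had 1482 in glk1glk2 leaves and 5595 in DJ leaves, 3.78-fold lower (interval 3.29 to 4.37). Sedoheptulose bisphosphatase Os04g0234600 had 181 in glk1glk2 leaves and 552 in DJ leaves, 3.05-fold lower (interval 2.09 to 4.62). Not all steps shared the difference, since phosphoribulokinase (OsPrk) was at 83.3 in glk1glk2 leaves and 88.1 in DJ leaves and fructose bisphosphatase (OsCFR) at 202 in glk1glk2 leaves and 207 in DJ leaves, both with intervals that hold 1. The CP12 gene Os01g0303000, whose protein binds phosphoribulokinase, was at 1134 in glk1glk2 leaves and 1064 in DJ leaves.

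Photorespiration, which recycles the product of Rubisco's reaction with oxygen, had the lowest median of the 36 lists at -2.85, with 11 of 14 genes at least 2-fold lower and 2 higher. Glycolate oxidase OsGLO1 had 61.2 in glk1glk2 leaves and 766 in DJ leaves, 12.5-fold lower (interval 6.87 to 29.1). Hydroxypyruvate reductase OsHPR1 had 23.2 in glk1glk2 leaves and 446 in DJ leaves, 19.2-fold lower (interval 8.72 to 45.5). The P protein of glycine decarboxylase, Os06g0611900, had 109 in glk1glk2 leaves and 1037 in DJ leaves, 9.5-fold lower (interval 5.97 to 15.4), and serine hydroxymethyltransferase OsSHM1 had 153 in glk1glk2 leaves and 986 in DJ leaves, 6.43-fold lower (interval 4.64 to 9.27). Steps in the peroxisome and in the mitochondrion were both lower. The ammonia that this cycle frees is taken up again by plastid glutamine synthetase OsGLN2, which had 163 in glk1glk2 leaves and 1016 in DJ leaves, 6.22-fold lower (interval 4.44 to 9.26), and by ferredoxin-dependent glutamate synthase OsGLU, which had 37.8 in glk1glk2 leaves and 532 in DJ leaves, 14.1-fold lower (interval 9.05 to 23.2). The cytosolic glutamine synthetase GLN1-1 was at 390.4 in glk1glk2 leaves and 447 in DJ leaves, with an interval that holds 1. Cytosolic GLN1 (Os03g0223400) was listed at 0 in glk1glk2 leaves, against 83.2 in DJ leaves. In all, 4 of 6 genes of nitrogen assimilation were at least 2-fold lower and 0 higher.

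Chlorophyll synthesis was lower at several steps. Of 7 genes compared, 5 were at least 2-fold lower and 0 higher, median -1.65. OsChlH, the large subunit of the magnesium chelatase that starts the chlorophyll branch, had 4.39 in glk1glk2 leaves, against 102 in DJ leaves, 23.2-fold lower (interval 5.72 to 176), on 2 fragments in the mutant. OsCRD1, of the cyclase that forms the fifth ring, had 80.7 in glk1glk2 leaves and 325 in DJ leaves, 4.02-fold lower (interval 2.33 to 7.9). LYL1, the geranylgeranyl reductase that makes the phytol tail, had 91.8 in glk1glk2 leaves and 289.9 in DJ leaves, 3.16-fold lower (interval 1.93 to 5.84), and CAO, which turns chlorophyll a into b, had 57.6 in glk1glk2 leaves and 142 in DJ leaves, 2.47-fold lower (interval 1.43 to 4.59). The early enzyme ALAD and the chelatase activator GUN4 were at 48.3 and 59.2 in glk1glk2 leaves, against 75 and 49.2 in DJ leaves, and their intervals hold 1. The median came nearer to 0 when weaker genes entered, -1.47 over the 10 genes picked by the other 4 libraries and -0.53 over the 31 genes above 0 in either library.

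Breakdown of chlorophyll gave a mixed picture in 5 genes. SGR, the Stay-Green protein that takes magnesium out of chlorophyll in senescing leaves, had 145 in glk1glk2 leaves, against 10.3 in DJ leaves, 14.1-fold higher (interval 4.37 to 53.2). NYC1, a chlorophyll b reductase, had 147 in glk1glk2 leaves and 79.2 in DJ leaves, 1.85-fold higher (interval 1.14 to 3.01), short of 2-fold. Another gene with a Stay-Green domain, Os04g0692600, went the other way with 82.8 in glk1glk2 leaves and 211 in DJ leaves, 2.55-fold lower (interval 1.27 to 5.87). NYC3 was at 50.9 in glk1glk2 leaves and 26.8 in DJ leaves and the chlorophyllase OsCHL at 34.6 in glk1glk2 leaves and 75.9 in DJ leaves, both with intervals that hold 1.

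Of 8 genes for carotenoids and the photoprotective protein PsbS, 5 were at least 2-fold lower and 1 higher, median -1.50. Phytoene synthase PSY2, the entry to carotenoids, had 13.1 in glk1glk2 leaves and 109 in DJ leaves, 8.29-fold lower (interval 2.07 to 67.6). Zeaxanthin epoxidase (OsABA1) had 96.9 in glk1glk2 leaves and 256 in DJ leaves, 2.65-fold lower (interval 1.69 to 4.45). Of the PsbS genes, which let the antenna shed excess light as heat, PSBS1 had 767 in glk1glk2 leaves and 2336 in DJ leaves, 3.05-fold lower (interval 2.41 to 3.88), whereas PSBS2 had 189 in glk1glk2 leaves and 144 in DJ leaves, with an interval that holds 1. On low phosphate both were higher in glk1glk2: PSBS1 was at 713 in glk1glk2 and 155 in DJ leaves, and PSBS2 at 168 in glk1glk2 and 6.1 in DJ leaves.

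Genes for protein synthesis in the plastid were lower by a smaller factor. Of 27 nuclear genes for plastid ribosomal proteins, 16 were at least 2-fold lower and 1 higher, median -1.05, and 10 of the intervals lay below 1. Protein L1 of the large subunit (Os05g0388500) had 40.5 in glk1glk2 leaves and 369.9 in DJ leaves, 9.14-fold lower (interval 3.94 to 24.3). A further 3 plastid genes were chosen after their values were seen. TIC110 (Os10g0492300), of the import channel in the inner envelope, had 109 in glk1glk2 leaves and 990.1 in DJ leaves, 9.06-fold lower (interval 5.62 to 15.3). The ORANGE homologue Os02g0651300 had 108 in glk1glk2 leaves and 810.4 in DJ leaves, 7.5-fold lower (interval 4.54 to 13.7), and the RNA-binding protein CSP41b had 197 in glk1glk2 leaves and 1448 in DJ leaves, 7.34-fold lower (interval 5.11 to 11.3). Genes encoded in the plastid itself were mostly under the minimum, with 5 compared. Of these, psaC had 58.3 in glk1glk2 leaves and 643 in DJ leaves on 1 fragment in the mutant, 11-fold lower (interval 2.64 to 627), and rpoA, for the plastid RNA polymerase, had 199.6 in glk1glk2 leaves and 313 in DJ leaves, 1.57-fold lower (interval 0.946 to 2.67). Plastid transcripts carry few poly(A) tails, so that their level in such libraries also depends on how RNA was selected, which is not given in the sources used here.

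Against this, the cytosolic translation machinery was higher in glk1glk2 leaves. Of 153 genes for cytosolic ribosomal proteins, 102 were at least 2-fold higher and 0 lower, 83 had an interval above 1 and the median was 1.22. Their values summed to 33608 in glk1glk2 and 14707 in DJ leaves. ZIURP1 had 1032 in glk1glk2 leaves and 347 in DJ leaves, 2.98-fold higher (interval 1.8 to 5.17). The RPL9 gene Os09g0485900 had 452 in glk1glk2 leaves and 119.9 in DJ leaves, 3.77-fold higher (interval 2.25 to 6.25), and SG12 had 834 in glk1glk2 leaves and 256 in DJ leaves, 3.26-fold higher (interval 2.29 to 4.63). The 2 lowest of the list, Os02g0699600 (L12) and Os05g0355500 (L29), were at 93.2 and 175 in glk1glk2 leaves, against 115 and 207 in DJ leaves. The whole list thus lay above or near equality. The 140 such genes picked by the other 4 libraries gave a median of 1.18. Gene length moved with the ratio among all genes compared: the median was 0.21 for the 454 genes up to 600 bases and -0.75 for the 197 genes of the longest class. Ribosomal protein genes are short, with a median of 733 bases, and in the length class that holds this value the median of all 1112 genes was 0.02. Photosystem genes are as short, with a median of 710 bases. The part of gene length in the ratios was not tested.

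The pattern of ribosomal proteins was not shared by the rest of translation to the same degree. Of 28 initiation and elongation factors, 8 were at least 2-fold higher (28.6%, near the 25.1% of all genes) and 3 lower (10.7%), median 0.56. Over the 24 such genes picked by the other 4 libraries, 4 were higher and 4 lower, with a median of 0.23. Elongation factor gene Os02g0220500 (EF-1 gamma) had 115 in glk1glk2 leaves and 23.7 in DJ leaves, 4.83-fold higher (interval 2.16 to 11.1), and one of the near-identical EF-1 alpha genes, Os03g0177400, had 417 in glk1glk2 leaves and 137 in DJ leaves, 3.04-fold higher (interval 2.12 to 4.38). GOS2, the SUI1-type initiation factor eIF1, had 700.0 in glk1glk2 leaves and 1666 in DJ leaves, 2.38-fold lower (interval 1.78 to 3.28). Of 6 genes listed as mitochondrial ribosomal proteins 5 were at least 2-fold higher, median 1.88, but only 2 intervals lay above 1. Each of the 5 reached the minimum in glk1glk2 leaves alone, with 32.8 or less in DJ leaves. The choice of genes thus favoured a higher ratio here too, and only 1 gene of the list was picked by the other 4 libraries. Most of the 6 are described by likeness to bacterial proteins, which does not give the organelle. The split into plastid and mitochondrial lists was shaped after values were seen, so the contrast between the lists is a description. Os05g0243300 (L13) had 142 in glk1glk2 leaves and 32.8 in DJ leaves, 4.33-fold higher (interval 1.54 to 13.2).

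Genes for protein turnover and folding were also higher. Of 33 proteasome genes, 19 were at least 2-fold higher and 0 lower, 17 with an interval above 1, median 1.13. In the core particle, the alpha subunit PAG1 had 195 in glk1glk2 leaves, against 21 in DJ leaves, 9.28-fold higher (interval 4.0 to 30.6), and the beta subunit OsPBE1 had 307 in glk1glk2 leaves, against 98.4 in DJ leaves, 3.12-fold higher (interval 1.94 to 5.31). In the regulatory cap, the lid subunit OsRpn3 had 118 in glk1glk2 leaves and 23.6 in DJ leaves, 4.98-fold higher (interval 2.3 to 11.6), and the ATPase OSRPT6 had 138 in glk1glk2 leaves and 45.5 in DJ leaves, 3.04-fold higher (interval 1.62 to 5.65). The lowest members were OsS5a, at 47.8 in glk1glk2 leaves and 80.5 in DJ leaves, and the heat tolerance gene TT1, at 43.4 in glk1glk2 leaves and 72.7 in DJ leaves, with intervals that hold 1. Of 21 genes for folding in the endoplasmic reticulum, a list added after values were seen, 13 were at least 2-fold higher and 1 lower, median 1.12. ESP2, a protein disulphide isomerase, had 236 in glk1glk2 leaves, against 24.2 in DJ leaves, 9.76-fold higher (interval 5.14 to 20.7). The chaperone GRP94 had 104 in glk1glk2 leaves, against 12.7 in DJ leaves, 8.18-fold higher (interval 3.95 to 20.8), the lumenal Hsp70 OsBiP1 had 53 in glk1glk2 leaves, against 12.1 in DJ leaves, 4.38-fold higher (interval 1.73 to 12.5), and calreticulin CRO1 had 270.3 in glk1glk2 leaves, against 38.7 in DJ leaves, 6.98-fold higher (interval 3.83 to 12.5). The heat shock proteins, a list that also holds plastid and mitochondrial members, gave no such lean. Of 13 genes 4 were higher and 2 lower, with a median of 0.16.

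The list with the highest median was that of DNA replication, DNA repair and cell cycle arrest. The list was added after values were seen, so that its count is a description. It holds 170 genes of the table, of which 11 reached the minimum of 50 and were compared. Of these, 8 were at least 2-fold higher and 1 lower, and all 8 had intervals above 1. Each of the 8 reached the minimum in glk1glk2 leaves alone, with 13.4 or less in DJ leaves. The choice of genes thus favoured a higher ratio. The median was 6.71, or 4.27 with the 6 genes at 0 in DJ leaves set at their bound. EL2, a plant inhibitor of cyclin-dependent kinases, had 769 in glk1glk2 leaves and was listed at 0 in DJ leaves, at least 50.5-fold higher. Another gene of the same SIAMESE-related family, Os01g0843700, had 367 in glk1glk2 leaves and was again listed at 0 in DJ leaves, at least 20.3-fold higher. Both inhibitors were also above DJ on low phosphate, with 488 in glk1glk2 and 68.7 in DJ leaves for EL2, and 499.7 in glk1glk2 and 7.53 in DJ leaves for Os01g0843700. The classical inhibitor KRP1, of another family, was at 63.5 in glk1glk2 leaves and 49.2 in DJ leaves, with an interval that holds 1.

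Enzymes that supply and repair DNA were higher with them. ST1 and RNRS2 both encode the small subunit of ribonucleotide reductase, which makes the building blocks of DNA. ST1 had 697 in glk1glk2 leaves and 0 in DJ leaves, at least 121-fold higher, and RNRS2 had 403 in glk1glk2 leaves and 0 in DJ leaves, at least 55.1-fold higher. PARP2A, a poly(ADP-ribose) polymerase that marks DNA breaks, had 148 in glk1glk2 leaves and 0 in DJ leaves, at least 30.2-fold higher. RAD51A2, the strand-exchange protein of homologous recombination, had 104 in glk1glk2 leaves and 0 in DJ leaves, at least 12.2-fold higher. OsPCNA, the sliding clamp of DNA polymerase, had 150.3 in glk1glk2 leaves, against 13.4 in DJ leaves, 11.2-fold higher (interval 3.84 to 48.1), and the metallo-beta-lactamase repair gene Os01g0881400 had 135 in glk1glk2 leaves, against 2.69 in DJ leaves, 50.1-fold higher (interval 10.2 to 347). Os04g0403400, a tyrosyl-DNA phosphodiesterase family gene chosen after its values were seen, had 119 in glk1glk2 leaves, against 1.19 in DJ leaves on 1 fragment, 100.1-fold higher (interval 17.8 to 4267). Other repair genes of the list did not follow, with OsRad52-2a at 46 in glk1glk2 leaves and 61.1 in DJ leaves and the exonuclease Os03g0227300 at 13.8 in glk1glk2 leaves and 54.7 in DJ leaves. Histone genes, with linker H1 genes and an H3.3-type gene among them, gave 5 higher and 2 lower of 13, median 0.36. The 2 lower genes were an H1 gene and the H3.3-type gene. The 8 higher genes had values on low phosphate that also stood above DJ, and in dgp1 leaves on normal phosphate the 6 genes at 0 in DJ ranged from 0 to 24.

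**Figure D4:**
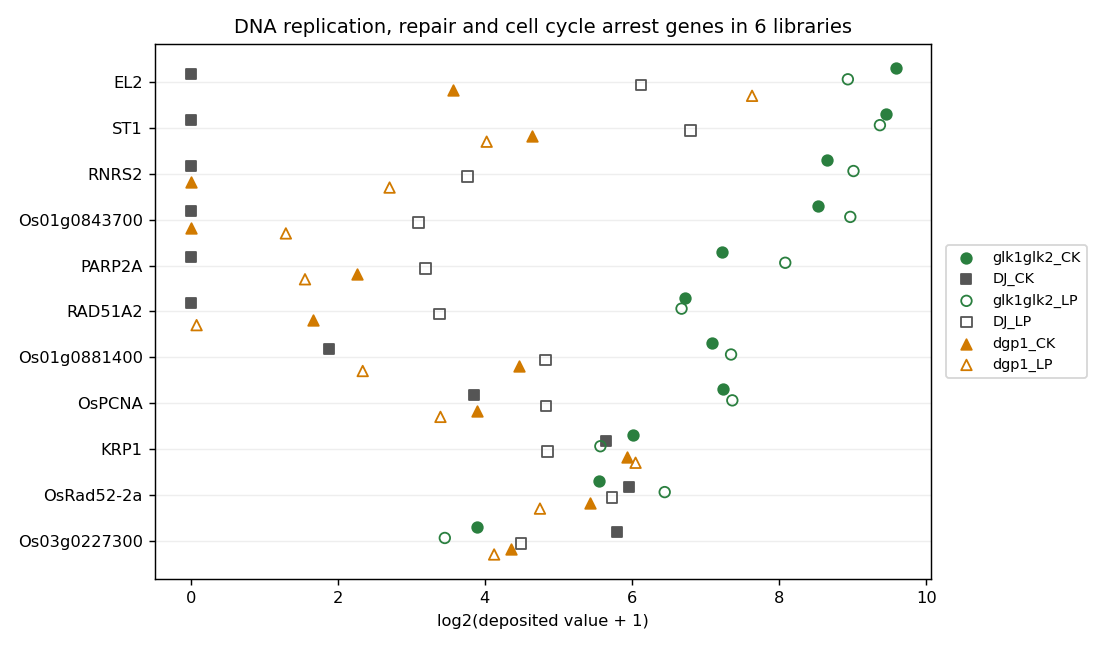
Values of the 11 genes of DNA replication, repair and cell cycle arrest in 6 libraries, 1 library per symbol, as log2(value + 1). Green circles are glk1glk2, grey squares DJ and orange triangles dgp1, filled on normal and open on low phosphate. For the upper 8 genes both circles lie right of both squares and both triangles.

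Outside the lists of photosynthesis, the 10 described genes whose intervals lay farthest above 1 include 4 that are described here. DIP3, a chitinase-like xylanase inhibitor, had 6616 in glk1glk2 leaves, against 19.97 in DJ leaves, 331-fold higher (interval 159.5 to 824). It was among the 5 highest values of the glk1glk2 library. R40C1, a ricin-type lectin of water stress, had 512 in glk1glk2 leaves and 0 in DJ leaves, at least 48.4-fold higher. The glucosyltransferase gene OsUGT706F1 had 284 in glk1glk2 leaves and 0 in DJ leaves, at least 45.6-fold higher. Os08g0485000, an EXORDIUM-like gene, had 549 in glk1glk2 leaves, against 8.68 in DJ leaves, 63.3-fold higher (interval 17.8 to 576). All 4 were also higher in glk1glk2 than in DJ leaves on low phosphate. The list of the 10 also holds a gene for the small ribosomal RNA, at 193 in glk1glk2 leaves and 0.552 in DJ leaves, a class that depends on how RNA was selected.

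The 10 described genes with intervals farthest below 1 were mostly genes of photosynthesis and photorespiration given above: the Rubisco small subunit genes RbcS5, RbcS3 and Os12g0274700, OsRcaII, OsHPR1 and OsGLU, with the thioredoxin TRXM described further on. The other 3 are of other kinds. Os05g0579600, a RADIALIS-like homeodomain gene, had 13 in glk1glk2 leaves and 791 in DJ leaves, 60.8-fold lower (interval 9.31 to 2095), on 1 fragment in the mutant. OSHAP5C, a subunit of the CCAAT-binding NF-Y factors, had 4.18 in glk1glk2 leaves and 275 in DJ leaves, below the value of 1 fragment in the mutant. Os01g0309800, a gene for a heavy metal-associated protein by its likeness to an Arabidopsis protein, had 7.72 in glk1glk2 leaves and 408 in DJ leaves, 52.9-fold lower (interval 8.34 to 1881), on 1 fragment in the mutant. On low phosphate Os05g0579600 was at 0 in glk1glk2 and 2.06 in DJ leaves, OSHAP5C at 13.7 in glk1glk2 and 107 in DJ leaves, and Os01g0309800 at 7.09 in glk1glk2 and 112 in DJ leaves.

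Of 18 pathogenesis-related genes, 10 were at least 2-fold higher and 4 lower, median 1.28, all 10 with an interval above 1. The protease inhibitors led: IAI2, a wound-induced inhibitor, had 827 in glk1glk2 leaves, against 25.3 in DJ leaves, 32.6-fold higher (interval 11.6 to 122), and the Bowman-Birk inhibitors RBBI2-2 and RBBI2-1 had 348 and 185 in glk1glk2 leaves, against 38.7 and 4.22 in DJ leaves. The chitinase Os01g0687400 had 94.1 in glk1glk2 leaves and 27.9 in DJ leaves, 3.38-fold higher (interval 1.28 to 9.25), and the glucanase Gns8 had 92 in glk1glk2 leaves and 30.9 in DJ leaves, 2.97-fold higher (interval 1.22 to 7.56). Germin-like GLP8-12 was lower, with 66.1 in glk1glk2 leaves and 233 in DJ leaves, 3.53-fold lower (interval 1.65 to 10.7).

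Glutathione transferases, which join glutathione to reactive compounds, split into 5 higher and 4 lower of 17. OsGSTU36 had 332 in glk1glk2 leaves and 0 in DJ leaves, at least 25.7-fold higher, and OsGSTU30 had 199 in glk1glk2 leaves and 0 in DJ leaves, at least 15.6-fold higher. OsGSTU6 (Os01g0558100) had 128 in glk1glk2 leaves, against 5.99 in DJ leaves, 21.4-fold higher (interval 3.7 to 153). In the other direction OsGSTU13 had 15.5 in glk1glk2 leaves, against 364 in DJ leaves, on 1 fragment in glk1glk2, 23.5-fold lower (interval 5.23 to 1197). The family's median was 0.55, and -0.34 over the 13 genes picked by the other 4 libraries, and so changed sign with the choice of genes. Antioxidant enzymes split as well, with 4 higher and 5 lower of 23. Catalase CATC, the catalase of photorespiring leaf, had 243 in glk1glk2 leaves and 575 in DJ leaves, 2.36-fold lower (interval 1.74 to 3.32), whereas CATA1 had 569.8 in glk1glk2 leaves and 403 in DJ leaves, 1.41-fold higher (interval 1.11 to 1.79). APX8, the thylakoid ascorbate peroxidase, had 76.7 in glk1glk2 leaves and 272 in DJ leaves, 3.55-fold lower (interval 1.96 to 6.7), and cytosolic OsMDAR4 had 167 in glk1glk2 leaves and 50.8 in DJ leaves, 3.29-fold higher (interval 1.81 to 5.83).

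Of 41 WRKY, NAC and ERF transcription factors, 18 were at least 2-fold higher and 4 lower, median 0.92, and 13 intervals lay above 1. ONAC015 had 151 in glk1glk2 leaves, against 6.9 in DJ leaves, 21.9-fold higher (interval 6.73 to 115). ERF77 had 192 in glk1glk2 leaves, against 18 in DJ leaves, 10.7-fold higher (interval 3.8 to 36.1), and the defence regulator WRKY71 had 93 in glk1glk2 leaves, against 16.1 in DJ leaves, 5.77-fold higher (interval 2.09 to 16.2). The salicylate-pathway regulator WRKY45 was at 17.2 in glk1glk2 leaves and 61.9 in DJ leaves, 3.6-fold lower (interval 1.08 to 17.9). Over the 40 factors picked by the other 4 libraries, 12 were higher and 3 lower. Of 12 jasmonate genes 3 were at least 2-fold higher and 0 lower. The Tify domain gene OsTIFY11d led with 62.3 in glk1glk2 leaves and 7.98 in DJ leaves, 7.81-fold higher (interval 1.49 to 84.2). The lipoxygenase OsLOX11 had 84 in glk1glk2 leaves and 14.3 in DJ leaves, 5.89-fold higher (interval 2.99 to 12.6). A set of 3 genes of cytokinin action was chosen after their values were seen. LOG1, which releases active cytokinin, had 81.2 in glk1glk2 leaves and 779 in DJ leaves, 9.59-fold lower (interval 5.74 to 18.8). The response regulator OSRR2 was listed at 0 in glk1glk2 leaves, against 106 in DJ leaves, at least 5.73-fold lower. OsPHP1, described as a pseudo histidine-containing phosphotransfer protein, had 26.3 in glk1glk2 leaves and 692 in DJ leaves. It was 26.3-fold lower (interval 7.41 to 227), on 2 fragments in the mutant.

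Central metabolism outside the plastid lay near equality. Of 73 genes of glycolysis and mitochondrial respiration, 9 were at least 2-fold higher and 6 lower, below the shares of all genes compared, with a median of -0.07 that turns to 0.33 after scaling to each library's own reads. Sugar and starch genes leaned lower on normal phosphate, with 13 of 26 lower and 2 higher, median -1.11. Over the 16 picked by the other 4 libraries, 6 were lower and 0 higher, median -0.87, against 30.1% lower of all genes so picked. On low phosphate 6 of the 26 were higher and 9 lower, with a median of -0.04. AGPS2a (OsAGPS2a), a small subunit of the enzyme that commits sugar to starch, had 9.33 in glk1glk2 leaves and 87.5 in DJ leaves, 9.37-fold lower (interval 2.47 to 79.5), and sucrose phosphate synthase sps11 had 10.6 in glk1glk2 leaves and 62.3 in DJ leaves, 5.87-fold lower (interval 1.42 to 48.2). The phloem sucrose carriers OsSUT1 and SWEET13 were at 112 and 170.5 in glk1glk2 leaves, against 128 and 183 in DJ leaves, with intervals that hold 1. Of 34 thioredoxins and peroxiredoxins, 16 were lower and 3 higher. The m-type plastid thioredoxin TRXM, which passes reducing power from ferredoxin to stroma enzymes, had 19.6 in glk1glk2 leaves, against 828 in DJ leaves, on 2 fragments in glk1glk2, 42.2-fold lower (interval 10.6 to 322), while the cytosolic h-type OsTRXh4 had 292 in glk1glk2 leaves and 83.5 in DJ leaves, 3.5-fold higher (interval 1.71 to 7.15).

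Transport and storage lists varied, and higher and lower stand here for at least 2-fold. Of 11 aquaporins, 6 were lower and 0 higher, median -1.46. Over the 9 picked by the other 4 libraries, 4 were lower and 1 higher, median -0.61. TIP1-2 of the vacuole had 435 in glk1glk2 leaves and 1483 in DJ leaves, 3.41-fold lower (interval 2.62 to 4.57), and PIP2-2 of the plasma membrane had 70.4 in glk1glk2 leaves and 334 in DJ leaves, 4.75-fold lower (interval 2.33 to 10.3). On low phosphate TIP1-2 was higher in glk1glk2, at 415 in glk1glk2 and 49.1 in DJ leaves. PIP2-2 was at 55.6 in glk1glk2 and 55.4 in DJ leaves there. Of 13 genes of phosphate transport and starvation, 7 were lower and 2 higher, led by OsPT14 with 4.83 in glk1glk2 leaves and 163 in DJ leaves on 1 fragment in the mutant, 33.7-fold lower (interval 6.01 to 1368). The metallothionein OsMT3a held the highest value of either library with 15079 in glk1glk2 leaves and 36034 in DJ leaves, 2.39-fold lower (interval 2.22 to 2.57). OsMT2c had 1218 in glk1glk2 leaves and 4399 in DJ leaves, 3.61-fold lower (interval 2.87 to 4.6), and OsMT2a had 1807 in glk1glk2 leaves and 1355 in DJ leaves, 1.33-fold higher (interval 1.06 to 1.68). The ASR protein gene OsASR5 had 7552 in glk1glk2 leaves and 2817 in DJ leaves, 2.68-fold higher (interval 2.4 to 3.0), next to OsMT3a in the order of values in glk1glk2 leaves. Among the 5 highest values of a library were also 3 genes of unknown product. Os12g0515800 had 703 in glk1glk2 leaves and 8958 in DJ leaves, 12.7-fold lower (interval 9.02 to 18.2). Os02g0160500 had 4882 in glk1glk2 leaves and 7087 in DJ leaves, 1.45-fold lower (interval 1.28 to 1.65), and Os01g0910900 had 2939.9 in glk1glk2 leaves and 13830.2 in DJ leaves, 4.7-fold lower (interval 4.03 to 5.54). Of 21 lipid transfer proteins, small secreted proteins that bind lipids, 7 were higher and 2 lower. OsLTP1.4 had 2114 in glk1glk2 leaves, against 137 in DJ leaves, 15.4-fold higher (interval 8.78 to 27.5), and OsLTP1.17 had 5287 in glk1glk2 leaves and 2958 in DJ leaves, 1.79-fold higher (interval 1.47 to 2.16).

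Among 13 cell wall genes 5 were higher and 1 lower, with the cellulose synthase OsCesA3 at 82 in glk1glk2 leaves and 22.7 in DJ leaves, 3.61-fold higher (interval 2.11 to 6.17). Among 17 cytoskeleton genes the actin-severing factor OsADF3 stood apart with 1022 in glk1glk2 leaves, against 27.2 in DJ leaves, 37.6-fold higher (interval 16.8 to 130), while OsADF7 had 25.2 in glk1glk2 leaves and 182 in DJ leaves, 7.22-fold lower (interval 3.17 to 19.7). Of 7 class III peroxidases 4 were lower and 2 higher. Of 5 clock genes 3 were lower and 0 higher: CCA1, a dawn gene, had 211 in glk1glk2 leaves and 621 in DJ leaves, 2.94-fold lower (interval 2.3 to 3.88), and the day-phased Hd2 had 27.3 in glk1glk2 leaves and 136 in DJ leaves, 4.99-fold lower (interval 2.49 to 11). The hour of harvest is not given in the sources used here.

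The same genotypes were compared on low phosphate in libraries that the ratios above do not use. By the same estimate these libraries hold about 85209 fragments in glk1glk2 and 2070751 in DJ leaves. Low counts in glk1glk2 thus limit the low-phosphate ratios too, and no interval is given with them. On low phosphate 751 of 3276 genes at 50 or more were at least 2-fold higher in glk1glk2 (22.9%) and 611 lower (18.7%). Of the 933 genes higher on normal phosphate, 634 (68.0%) had a ratio above 0 on low phosphate and 333 (35.7%) were again at least 2-fold higher, against 51.5% and 20.8% of all 3720 genes. Of the 1173 lower ones, 748 (63.8%) had a ratio below 0 and 367 (31.3%) were again at least 2-fold lower, against 48.0% and 17.3% of all. Among the 210 genes at least 8-fold higher, 134 (63.8%) were again at least 2-fold higher. Across the 3720 genes the ratios at the 2 supplies correlated with a Pearson r of 0.34 and a Spearman rho of 0.32, as a description over genes, which are not independent.

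Lists differed in how far they held. The photosystem genes had a median of -1.28 on low phosphate with 10 of 19 at least 2-fold lower, chlorophyll synthesis -1.47 with 4 of 7 lower, and the antenna -0.71 with 6 of 14 lower. Photorespiration stood at -0.92 and electron transport at -0.50. The DNA list had 8 of 11 higher, median 2.58, and the proteasome 8 of 33 higher and 0 lower, median 0.60. Folding in the endoplasmic reticulum had only 2 of 21 higher and 4 lower, median 0.33. The cytosolic ribosomal proteins were not higher as a list, with 3 of 153 higher and 15 lower on low phosphate, median -0.28.

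The sums in the 4 libraries stood as follows. Cytosolic ribosomal protein genes summed to 33608 in glk1glk2 and 14707 in DJ leaves on normal phosphate, and to 30365 in glk1glk2 and 36308 in DJ leaves on low phosphate. The DJ library on normal phosphate was the low one of the 4. Photosystem genes summed to 11515 in glk1glk2 and 38379 in DJ leaves on normal phosphate, and to 9885 in glk1glk2 and 18424 in DJ leaves on low phosphate. For these genes both glk1glk2 libraries lay below both DJ libraries. Over all 3720 genes, 850 (22.8%) differed at least 2-fold between low and normal phosphate in glk1glk2, and 1690 (45.4%) in DJ, comparisons that share libraries with the ratios above.

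**Figure D5:**
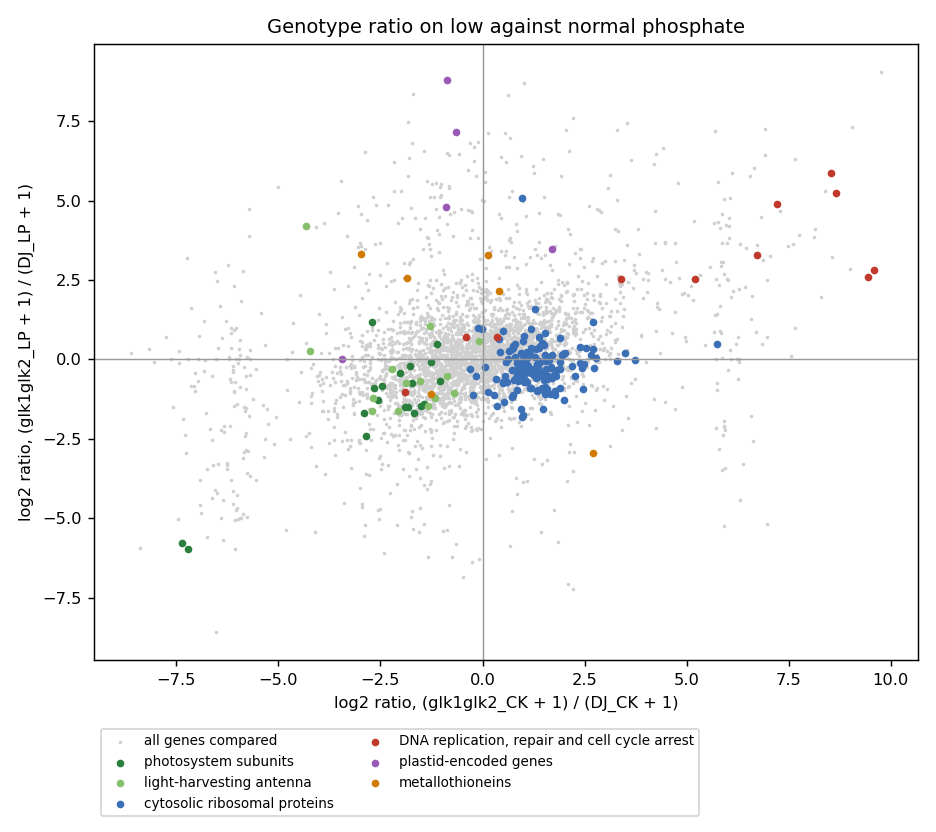
Each grey point is 1 of the 3720 genes: the horizontal axis is the log2 ratio of glk1glk2_CK over DJ_CK and the vertical axis that of glk1glk2_LP over DJ_LP, each with 1 added to both values. Coloured points are members of 6 lists. Most DNA genes lie in the upper right, most photosystem and antenna genes in the lower left, and most ribosomal protein genes right of 0 but around 0 on the vertical axis.

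The dgp1 mutant on normal phosphate shares the DJ library with the ratios above, so that only levels are given. Photosystem genes summed to 11515 in glk1glk2, 102219 in dgp1 and 38379 in DJ leaves. Antenna genes summed to 10499.7 in glk1glk2, 60970.1 in dgp1 and 30949 in DJ leaves. Cytosolic ribosomal protein genes summed to 33608 in glk1glk2, 17334 in dgp1 and 14707 in DJ leaves. The sums of both photosynthesis lists were lowest in glk1glk2 and highest in dgp1. GLK1 itself was at 40.9 in glk1glk2, 273 in dgp1 and 179 in DJ leaves.

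Near the minimum of 50, the genes just inside were OEP21 at 13.9 in glk1glk2 leaves and 50.02 in DJ leaves, Os08g0494400 at 47.4 in glk1glk2 leaves and 50.02 in DJ leaves and Os03g0660700 at 50.03 in glk1glk2 leaves and 10.6 in DJ leaves. Just outside lay SBE1 at 49.97 in glk1glk2 leaves and 20.1 in DJ leaves, Os08g0436000 at 49.99 in glk1glk2 leaves and 36.3 in DJ leaves and Os03g0832600 at 49.94 in glk1glk2 leaves and 41.0 in DJ leaves.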

How the data were processed

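Leaf RNA was sequenced from 1 library per genotype and supply after a directional library preparation, per the labels' protocols. The authors deposited 1 value per gene and library with no unit in the header. The deposited values behave as FPKM: the value times the gene length, divided by the smallest such product of a library, was whole within 0.01 for 100% of values in both libraries. The aligner, the counting tool, the use of strand and the genome build are not given in the sources used here. A gene entered at 50 or more in one of the 2 columns, and 1 was added to both values before the log2 ratio. Estimated fragments per gene are reads divided by the read number at which genes pile up, and ratios of fragments carry exact 95% binomial intervals. The files of this comparison hold 14307611 reads in glk1glk2 and 13772220 in DJ leaves, and intervals cover counting error only. Steps were run with Python 3.11.15, pandas 2.3.3, numpy 2.4.6, scipy 1.17.1 and matplotlib 3.10.9 and tested on simulated data.

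With 1 library per group no test was run and no p-value is given. The genes compared and the lists were chosen with earlier results of these data known. The lists for DNA replication and for folding in the endoplasmic reticulum, and the splitting of organelle ribosomal proteins, the proteasome and glutathione transferases, were shaped after values were seen, and 3 genes whose product is of another kind were taken out of lists. Genes named are GLK1 and GLK2, the 10 with intervals farthest above and the 10 farthest below 1, the 5 highest in each library, the 2 highest and 2 lowest of each list or all members of lists of up to 8, and the 3 on each side of the minimum. From these a part is printed, and further list members were picked for their roles after values were seen. Pseudocounts, minimums, scalings and read peaks were varied. The second table of the series, on another cultivar, was not used here.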

Additional observations from a re-analysis of the deposited data

Results flagged for a closer look

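Opposite directions at the 2 phosphate supplies drew attention to a few groups, and the difference between supplies was not tested for any of them. The plastid-encoded genes had a median log2 ratio of glk1glk2 over DJ of -0.88 on normal and 4.80 on low phosphate. Their values summed to 923 in glk1glk2 and 2110 in DJ leaves on normal phosphate, and to 1003 in glk1glk2 and 25.1 in DJ leaves on low phosphate. The 6 metallothioneins compared had medians of -0.56 on normal and 2.35 on low phosphate. Values of all 20 genes of that list summed to 18299 in glk1glk2 and 42210 in DJ leaves on normal phosphate. On low phosphate they summed to 14851 in glk1glk2 and 26508 in DJ leaves. The sums were thus lower in glk1glk2 at both supplies, as was OsMT3a, at 11784 in glk1glk2 and 25132 in DJ leaves on low phosphate. Os01g0910900, a gene of unknown product among the 5 highest values of the DJ library, had ratios of -2.23 on normal and 2.48 on low phosphate. It stood at 2940 in glk1glk2 and 13830 in DJ leaves on normal phosphate. Over all genes compared, 76 were at least 2-fold higher on normal and at least 2-fold lower on low phosphate, and 174 the other way round.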

How the results depend on the processing

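The photosystem, antenna, chlorophyll and ribosomal medians kept their sign under every alternative run. The median of all genes did not: it was -0.17 as deposited and 0.23 and 0.25 after scaling to each library's own reads and own sum, where 1231 and 1251 genes were higher and 881 and 868 lower. The counts of 933 higher and 1173 lower genes moved with the minimum: 2079 and 2329 at a minimum of 20, 418 and 640 at 100, 4955 and 7127 with none, and 543 and 776 where the mean of the 2 columns was at least 50. With a mean of 50 over the other 4 libraries 522 genes were higher. Scaling to each library's own reads or own sum moved the photosystem median (-1.90) to -1.49 and -1.47, and the cytosolic ribosomal median (1.22) to 1.63 and 1.65, and centring moved the ribosomal median to 1.40. Among the other lists only glycolysis and mitochondrial respiration changed sign under a scaling, at -0.07 as deposited and 0.10, 0.33 and 0.35 after centring, own reads and own sum. Under the filter on the other 4 libraries, heat shock proteins changed to -0.51, glutathione transferases to -0.34 and the cytoskeleton to -0.04. With the mean of the 2 columns at least 50, heat shock proteins changed to -0.23, chlorophyll breakdown to -0.12 and the cytoskeleton to -0.04, and with no minimum the cell wall list changed to -0.67. No paired analysis was possible because the 2 genotypes share only 1 replicate number. The planned search for promoter motifs was not run, since no promoter sequence was used here. Low depth limits genes with few fragments in glk1glk2 leaves.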

Other observations

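Of 10 genes for LEA and ASR proteins, which protect cells in drying tissue, 4 were at least 2-fold higher in glk1glk2 leaves and 3 lower, with a median log2 ratio of 0.67. OsLEA7 had 207 in glk1glk2 and 42.5 in DJ leaves, and OsAsr1 had 658 in glk1glk2 and 212 in DJ leaves. In the other direction OsAsr2 had 744 in glk1glk2 and 2413 in DJ leaves, and OsLEA24 had 2835 in glk1glk2 and 5745 in DJ leaves. The ASR genes thus lay on both sides. Among the class III peroxidases, haem enzymes of the cell wall, prx65 had 35.2 in glk1glk2 and 134.7 in DJ leaves, PRX125 had 36.2 in glk1glk2 and 137 in DJ leaves, and prx20 had 141 in glk1glk2 and 49.9 in DJ leaves.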
